A study of Mus musculus with 6 samples.

Results

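The set described here holds 8 genes of melanosome structure and transport: Pmel, Mlana, Gpnmb, Slc45a2, Slc24a5, Oca2, Gpr143 and Trpm1. They were chosen by gene name, with earlier results of these libraries known, including their difference between the labels. All 8 have a row among the 18908 genes of the table. Their levels and their differences between the labels are therefore given as a description, with no p-value. The study concerns VprBP, also called Dcaf1, in osteoclast differentiation, and the libraries are messenger RNA sequencing of mouse cells. The control-labelled libraries (n = 3) carry a control shRNA and the genotype label WT. The VprBP-labelled libraries (n = 3) carry an shRNA against VprBP and the genotype label VprBP1 Knockdown. Short hairpin RNAs (shRNAs) are made to reduce a matching transcript. The sets are called the control group and the VprBP group below, by label alone. The labels call the cells of both groups BMDM, macrophages grown from bone marrow, and give no strain, age, hairpin sequence, delivery or time. They do not tell which animals or cultures the replicates stem from, so every p-value here reflects library-to-library spread that could be technical alone.

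The melanosome is the pigment granule of melanocytes and of the retinal pigment epithelium. It starts as an endosomal compartment in which cleaved PMEL protein forms amyloid fibrils, and melanin is later laid down on them. Enzymes of melanin synthesis are delivered afterwards, and membrane transporters set the pH and ion content in which tyrosinase works. Loss of several of these transporters lightens coat or skin colour and causes forms of albinism.

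The 6 libraries held 16839445 to 21838875 counts, and levels are in CPM, counts per 1000000 after scaling between libraries. Macrophage transcripts were scarce under both labels: 16 of 23 macrophage markers, Csf1r, Adgre1, Itgam and Spi1 among them, have no row in the table used here, and the other 7 summed to 37.3 to 40.8 CPM in the control group and 20.4 to 21.4 CPM in the VprBP group. The lysosomal glycoprotein Cd68 supplied most of the sum in the control group (31.6 ± 1.196 CPM, against 1.01 ± 0.270 in the VprBP group, SD, n = 3 each). The other markers did not follow it. By the edgeR test described below, 5 were tested, of which 3 were called higher, 1 (Cd68) lower and 1 not called. Mertk, 1 of the higher ones, stood at 5.35 ± 0.739 and 13.3 ± 0.696 CPM. Over all tested genes, 37.9% were called higher and 37.0% lower. Osteoclast markers were scarce too: 6 of 13 have no row, and the other 7 summed to 29.9 to 40.1 CPM and 69.0 to 71.5 CPM. Most of that sum was Itgb3 (30.5 ± 4.93 and 56.4 ± 1.19 CPM), followed in the VprBP group by Mmp9 (0.566 ± 0.104 and 8.66 ± 0.669 CPM). Of 4 tested, 3 were called higher, 0 lower and 1 not called. Ctsk, too scarce to be tested, stood at 0.917 ± 0.443 and 0.122 ± 0.167 CPM. The labelled cell type is therefore not borne out by its defining markers, and no other cell type name is given here. The targeted gene Dcaf1 stood at 42.1 ± 1.42 and 35.8 ± 1.11 CPM, a log2 difference of -0.24 (SE 0.07, edgeR adjusted p = 0.00625), with a two-sided exact permutation p = 0.1, the smallest that 3 against 3 libraries allow. With scaling by library size alone it was -0.12 and not called (adjusted p = 0.137). Directions below are between libraries as labelled. Genes of the mitochondrial genome took 8.65% to 9.48% of the control group and 4.89% to 5.56% of the VprBP group counts.

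Transcripts of 7 of the 8 melanosome genes were lower in the VprBP group, by 1.77-fold to 4.29-fold, and Oca2, which was scarce under both labels, was not called. By the edgeR quasi-likelihood test over all 14641 tested genes, called at an adjusted p below 0.05, 7 were lower, 0 higher and 1 not called. Of all tested genes, 37.0% were called lower, 37.9% higher and 75.0% in either direction, and since the set was chosen with this contrast known, nothing is read from the count. The median log2 difference of the 8 was -1.41, beside -0.01 over all tested genes. The groups did not overlap for the same 7 genes, as for 77.2% of all tested genes, with 38.2% of all tested genes lower and without overlap. In such bulk libraries, fewer cells of a type and less RNA per cell cannot be told apart. With genes of the mitochondrial genome left out of the table, the same counts of 7 lower and 0 higher were found.

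**Figure D1:**
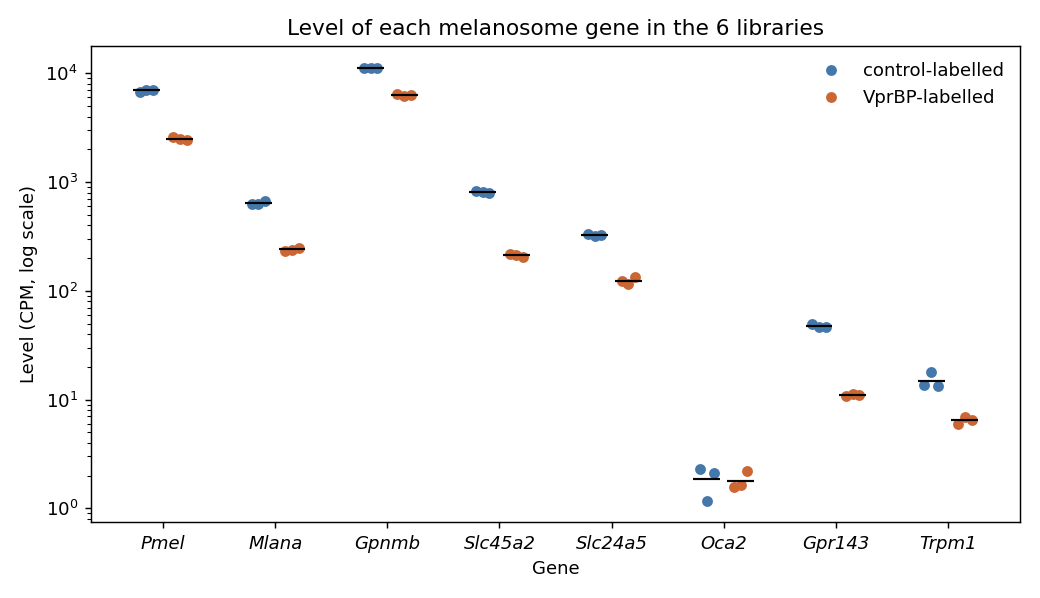
Level of each gene (CPM, log axis) in every library, with 3 points per group and a bar at the group mean. Except for Oca2, where the groups overlap, each VprBP-labelled point lies below each control-labelled point of the same gene.

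Pmel (ENSMUSG00000025359.10; GRCm38 chromosome 10, 128704195 to 128720238, plus strand) encodes the protein of the melanosome fibrils. It was measured at 6806, 7031 and 7076 CPM in control libraries 1, 2 and 3, and at 2578, 2497 and 2441 CPM in VprBP libraries 1, 2 and 3. All control libraries were high and close together, and the groups did not overlap. Pmel was 2.78-fold lower in the VprBP group (log2 difference -1.48, SE 0.03; 95% interval of the fold 2.65 to 2.92). The annotated ends of Pmel overlap Cdk2 and Dgka, which lie on the other strand. Reads of overlapping genes cannot be separated without a known strand setting. Both neighbours were called higher, Cdk2 by 0.28 (SE 0.07, edgeR adjusted p = 0.00108) and Dgka by 0.49 (SE 0.08, adjusted p = 2.6e-05) on the log2 scale, and both stood far below Pmel, at 104 ± 9.69 and 25.9 ± 0.550 CPM in the control group.

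Mlana (ENSMUSG00000024806.4; chromosome 19, 29697824 to 29708634, plus strand) encodes MART-1, a small membrane protein of early melanosomes that binds PMEL and is needed for its maturation. It stood at 628, 634 and 670 CPM in the control group and at 234, 239 and 248.7 CPM in the VprBP group. The groups were well apart, with little spread inside each. The difference was 2.68-fold (log2 difference -1.42, SE 0.04; interval 2.51 to 2.86), close to that of Pmel.

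Gpnmb (ENSMUSG00000029816.10; chromosome 6, 49036546 to 49070929, plus strand) encodes a glycoprotein related to PMEL that sits in melanosomes and lysosomes. It is also made by macrophages and osteoclasts, where it is known as osteoactivin. Its levels were 11158, 11188 and 11294 CPM in the control group and 6480, 6163 and 6320 CPM in the VprBP group. The groups did not overlap, and the CV within the control group was 0.636%. At 1.77-fold lower (log2 difference -0.83, SE 0.03; interval 1.70 to 1.86), Gpnmb had the smallest difference of the 7 called genes.

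Slc45a2 (ENSMUSG00000022243.10; chromosome 15, 11000721 to 11029233, plus strand) encodes a membrane transporter that keeps the melanosome from becoming too acidic for tyrosinase. It stood at 821, 806 and 793 CPM in the control group and at 220, 212 and 204 CPM in the VprBP group. The VprBP mean was 26.2% of the control mean, with no overlap. The fitted difference was 3.81-fold (log2 difference -1.93, SE 0.04; interval 3.58 to 4.06).

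Slc24a5 (ENSMUSG00000035183.14; chromosome 2, 125068124 to 125088677, plus strand) encodes a potassium-dependent sodium-calcium exchanger whose loss lightens pigment. It stood at 332, 322 and 327 CPM in the control group and at 122, 114 and 134 CPM in the VprBP group. The VprBP libraries were low and more spread out, with a CV of 7.94% against 1.51%. The difference was 2.65-fold (log2 difference -1.40, SE 0.05; interval 2.45 to 2.86). Its end overlaps Myef2 on the other strand, which was called higher by 0.40 on the log2 scale (SE 0.06, edgeR adjusted p = 5.41e-06).

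Oca2 (ENSMUSG00000030450.11; chromosome 7, 56239760 to 56536518, plus strand) is the pink-eyed dilution gene, whose product carries an anion current across the melanosome membrane. It had 48, 19 and 35 counts in the control group and 29, 30 and 42 in the VprBP group. These are 2.30, 1.18 and 2.09 CPM against 1.56, 1.62 and 2.19 CPM, and the groups overlapped. The log2 difference was -0.06 (SE 0.37), with a 95% interval of -0.83 to 0.72. The interval spans 0 and holds differences in either direction, so a like level under both labels is not shown. Its neighbour upstream, Herc2, was called lower by 0.78 on the log2 scale (172 ± 2.58 against 99.7 ± 3.57 CPM, edgeR adjusted p = 7.85e-11).

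Gpr143 (ENSMUSG00000025333.10; chromosome X, 152781921 to 152808646, plus strand) encodes a receptor of the melanosome membrane that limits melanosome size and is mutated in ocular albinism. It stood at 49.4, 46.4 and 46.6 CPM in the control group and at 10.9, 11.3 and 11.1 CPM in the VprBP group. Each group was tight and the groups were far apart. Of the 8 genes it had the largest fitted difference, 4.29-fold (log2 difference -2.10, SE 0.09; interval 3.78 to 4.85), and its interval overlapped that of Slc45a2.

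Trpm1 (ENSMUSG00000030523.18; chromosome 7, 64153835 to 64269775, plus strand) encodes a cation channel of melanocytes and of retinal bipolar cells, and the microRNA gene Mir211 lies inside it (64205806 to 64205911). It had 284, 291 and 221 counts, or 13.6, 18.0 and 13.2 CPM, in the control group and 111, 129 and 124 counts, or 5.98, 6.97 and 6.47 CPM, in the VprBP group. Control library 2 was high within its group, and the groups did not overlap. The difference was 2.30-fold (log2 difference -1.20, SE 0.15; interval 1.84 to 2.88). Mir211 has no row in the table used here.

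**Figure D2:**
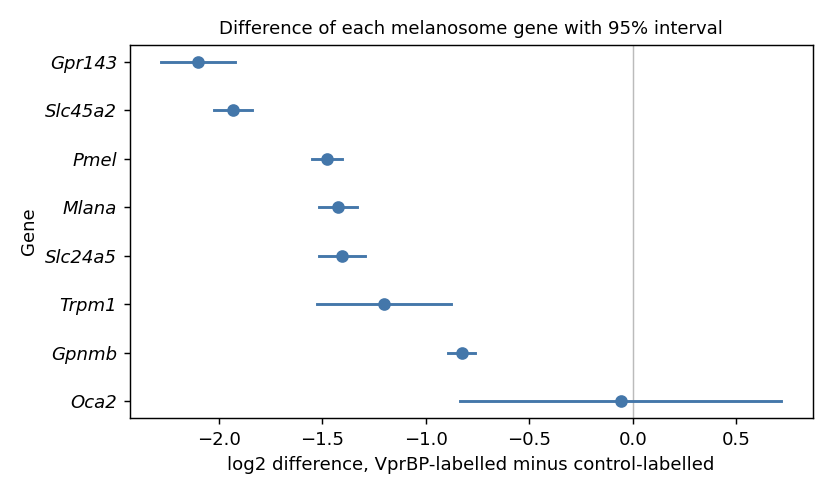
Log2 difference of each gene, VprBP-labelled minus control-labelled (x axis), with the fitted value as a point and its 95% interval as a bar. Gpr143 (-2.10) and Slc45a2 (-1.93) lie farthest to the left, Pmel, Mlana and Slc24a5 share the range from -1.48 to -1.40, and the bar of Oca2 spans 0.

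Promoter windows were looked at because most of these genes were lower together and because MITF, the main transcription factor of pigment cells, binds E-box sequences. RefSeq windows on GRCm38.p6, from 250 bases before to 50 after a start site, were matched for 4 of the 8 genes, with 5 windows in all since Trpm1 has a pair. The letters searched, on both strands, were the E-box class CANNTG, and within it first CACGTG, then CACATG with its reverse complement CATGTG, and last the longer TCATGTG with its reverse complement CACATGA. A match to a longer motif also counts for the shorter ones it holds. The 250 bases before each start are printed 5′ to 3′, plus strand, with matches in capitals. The windows are chr2:125067877-125068126 for Slc24a5, chr6:49036268-49036517 for Gpnmb, chr7:56239509-56239758 for Oca2, and chr7:64153585-64153834 and chr7:64185209-64185458 for the upstream and downstream starts of Trpm1.
Slc24a5: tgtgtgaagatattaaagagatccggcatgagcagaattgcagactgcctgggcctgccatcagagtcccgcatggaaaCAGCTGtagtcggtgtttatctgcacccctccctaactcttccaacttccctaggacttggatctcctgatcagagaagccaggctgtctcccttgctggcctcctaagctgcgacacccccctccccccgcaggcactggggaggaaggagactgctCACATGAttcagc
Gpnmb: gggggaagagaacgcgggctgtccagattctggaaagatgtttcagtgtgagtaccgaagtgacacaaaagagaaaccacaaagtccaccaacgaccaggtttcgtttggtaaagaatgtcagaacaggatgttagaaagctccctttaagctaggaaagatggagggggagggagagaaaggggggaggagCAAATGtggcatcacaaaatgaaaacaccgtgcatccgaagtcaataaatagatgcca
Oca2: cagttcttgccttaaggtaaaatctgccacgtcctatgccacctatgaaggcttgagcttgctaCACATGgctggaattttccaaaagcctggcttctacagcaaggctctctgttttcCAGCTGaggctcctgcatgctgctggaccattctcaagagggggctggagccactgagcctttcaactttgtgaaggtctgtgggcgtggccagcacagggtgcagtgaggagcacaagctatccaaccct
Trpm1 upstream: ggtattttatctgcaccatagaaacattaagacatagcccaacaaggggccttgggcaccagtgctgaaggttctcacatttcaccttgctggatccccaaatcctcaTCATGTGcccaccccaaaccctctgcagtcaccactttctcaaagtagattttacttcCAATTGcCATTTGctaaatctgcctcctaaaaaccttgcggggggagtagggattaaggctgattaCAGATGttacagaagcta
Trpm1 downstream: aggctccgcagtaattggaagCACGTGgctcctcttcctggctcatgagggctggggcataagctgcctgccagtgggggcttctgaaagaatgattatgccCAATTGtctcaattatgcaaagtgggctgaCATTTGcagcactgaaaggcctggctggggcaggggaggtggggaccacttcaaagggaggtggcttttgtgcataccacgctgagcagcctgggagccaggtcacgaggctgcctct
Each of the 5 full windows of 300 bases held a CANNTG, as did 72.3% of the 32851 windows of that length in the table. The longer match occurred in Slc24a5, as CACATGA beginning 13 bases before the start, and in the upstream Trpm1 window, as TCATGTG beginning 142 bases before it, and in 3.77% of all windows. Oca2, the gene that was not called, had CACATG 186 bases before its start, a sequence that with its reverse complement occurred in 14.2% of windows. It did not set Oca2 apart, since the Slc24a5 window and both Trpm1 windows held CACATG or CATGTG too. In the downstream Trpm1 window that match lay after the start, outside the printed bases. The downstream Trpm1 window had CACGTG 229 bases before the start, found in 7.15% of windows. The Gpnmb window held none of the 3 narrower sequences. These are matches of letters in a window and show neither binding nor its absence.

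Between genes, levels can be compared only per length, here as CPM per kb of annotated exon. In the control group the order was Pmel (3041 ± 63.1 CPM per kb), Gpnmb (1721 ± 10.95), Mlana (609 ± 21.5), Slc45a2 (270 ± 4.64), Slc24a5 (140.3 ± 2.12), Gpr143 (23.8 ± 0.834), Trpm1 (1.01 ± 0.182) and Oca2 (0.468 ± 0.150). In the VprBP group the order was the same down to Gpr143, at 1093 ± 29.9, 970 ± 24.3, 227 ± 7.31, 71.0 ± 2.72, 53.0 ± 4.21 and 5.55 ± 0.100 CPM per kb. Oca2 (0.452 ± 0.0875) and Trpm1 (0.439 ± 0.0333) closed that list and, per kb of exon, did not differ beyond their spread. In the VprBP group the order of Pmel and Gpnmb, and that of Oca2 and Trpm1, turned with the length used. Per kb of the longest coding transcript, Gpnmb stood at 1708 and Pmel at 1176, and in the control group at 3030 and 3273. On that length Trpm1 stood at 1.13 and Oca2 at 0.572 in the VprBP group, and at 2.62 and 0.592 in the control group. Per kb of exon, Pmel ranked 17 and Gpnmb 26 among the 14310 tested genes with a known length in the control group, and 24 and 26 in the VprBP group. Gpr143 went from rank 1831 to rank 6612, and Mlana from 54 to 139.

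Together the 8 genes made up 1.90%, 1.92% and 1.95% of all counts in the control group and 1.003%, 0.960% and 0.976% in the VprBP group. Their summed level was 20026 ± 207 CPM against 9421 ± 208 CPM. Gpnmb and Pmel made up nearly all of it. Gpnmb held 56.0% ± 0.287 of the sum in the control group and 67.1% ± 0.406 in the VprBP group, and Pmel 34.8% ± 0.393 and 26.6% ± 0.485. These are shares of counts, not per length, so they do not order the genes by level. The remaining 6 genes summed to 1842 ± 13.1 and 595 ± 10.6 CPM.

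Ratios inside a library do not depend on scaling between libraries, and they show which genes kept step. The ratio of Gpnmb to Pmel counts was 1.64, 1.59 and 1.596 in the control group and 2.51, 2.47 and 2.59 in the VprBP group, without overlap, so Pmel was lower by more than Gpnmb. The ratio of Pmel to Mlana was 10.8, 11.1 and 10.6 against 11.04, 10.5 and 9.81, and the groups overlapped. Mlana to Slc24a5 also overlapped, at 1.97 ± 0.0775 and 1.95 ± 0.120. Pmel to Slc45a2 went from 8.64 ± 0.322 to 11.8 ± 0.137, since Slc45a2 was lower by more. Pmel to Tyrp1, an enzyme of melanin synthesis, was 0.972, 1.03 and 1.09 in the control group and 0.365, 0.339 and 0.346 in the VprBP group. Of the 4 ratios plotted, this last one differed most between the groups as a fold (2.94-fold).

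**Figure D3:**
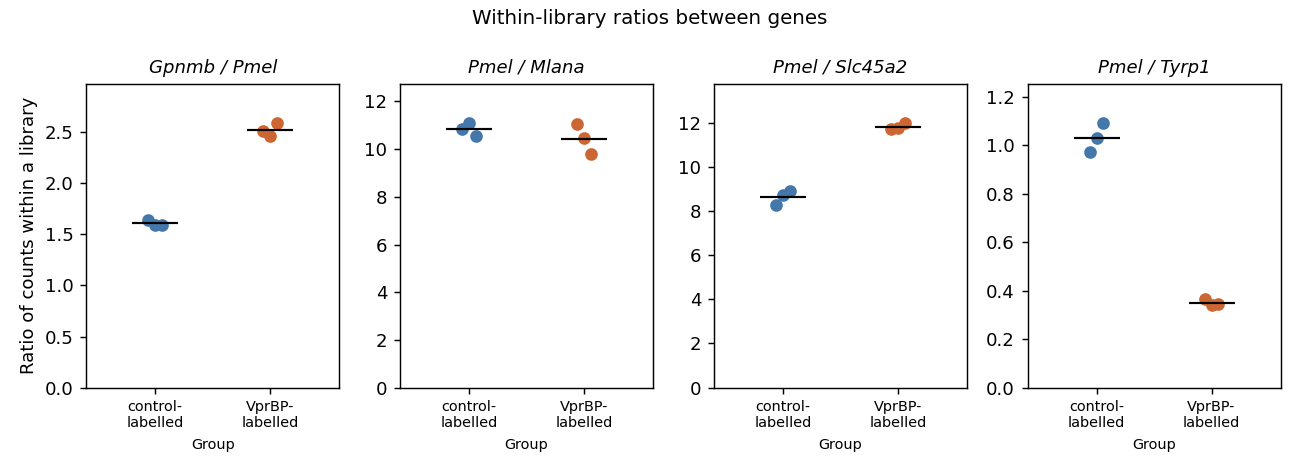
Ratio of counts between a pair of genes within each library (y axes from 0), by group, with a bar at the mean of 3 libraries. The groups overlap for Pmel / Mlana and are apart for Gpnmb / Pmel (1.61 against 2.52), Pmel / Slc45a2 (8.64 against 11.8) and Pmel / Tyrp1 (1.03 against 0.350).

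The counts for the related lists below stand beside the shares over all tested genes, 37.9% called higher and 37.0% called lower. Genes of melanin synthesis, whose products work inside the same organelle, did not share the lower levels. Tyr, which encodes tyrosinase, rose 3.79-fold in the VprBP group (124.9 ± 7.43 to 474 ± 26.2 CPM, edgeR adjusted p = 8.19e-16). Dct, which encodes dopachrome tautomerase, rose 1.504-fold (5807 ± 86.5 to 8737 ± 243 CPM, adjusted p = 1.07e-11). Tyrp1 stood at 6778 ± 262 and 7166 ± 181 CPM, a log2 difference of 0.08 (SE 0.03, edgeR adjusted p = 0.0462), and 6 of 14 alternative analyses did not call it (adjusted p up to 0.333).

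Of 14 tested regulators of the pigment lineage, among 19 listed, 6 rose, 3 fell and 5 were not called, with a median log2 difference of 0.21. The count that rose is near the share over all tested genes (37.9%), so nothing is read from it. Mitf, the transcription factor named above, stood at 28.2, 28.0 and 26.3 CPM in the control group and 90.3, 98.3 and 95.3 CPM in the VprBP group, and rose 3.44-fold (edgeR adjusted p = 3.66e-14). The neural crest factor Sox10 rose 3.51-fold (adjusted p = 5.31e-15) and the zinc finger factor Zeb2 4.42-fold (adjusted p = 9.46e-16). Irf4, which acts with MITF on the tyrosinase gene, fell 6.30-fold from 3.17 ± 0.533 to 0.499 ± 0.0707 CPM (edgeR adjusted p = 6.56e-06). Tfe3, a relative of MITF that drives lysosomal genes, was lower by a log2 difference of 0.22 and lost its call with scaling by library size alone (edgeR adjusted p = 0.00223, then 0.111). Tfeb, in the same list, leaned the other way and was not called (14.5 ± 1.52 and 17.4 ± 2.10 CPM, edgeR adjusted p = 0.0557). Of 14 alternative analyses, 4 called Tfeb higher. Upper quartile scaling gave 6 higher and 5 lower in this list, and library size alone 8 and 2.

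Of 16 tested genes whose products process and sort PMEL and GPNMB, among 18 listed, 6 rose, 6 fell and 4 were not called, near the shares over all tested genes (37.9% and 37.0%), so nothing is read from the counts. Library size alone gave 8 higher and 5 lower. The median log2 difference was 0.01 and turned to -0.02 with upper quartile scaling. The tetraspanin Tspan10 stood at 248.6, 237 and 257 CPM in the control group and 54.0, 49.8 and 47.2 CPM in the VprBP group, and fell 4.92-fold (edgeR adjusted p = 2.15e-16). Cd63, the tetraspanin that sorts PMEL into intraluminal vesicles, fell 1.97-fold (2824 ± 68.3 to 1434 ± 19.4 CPM, adjusted p = 2.34e-14), and the sorting protein Hgs fell 2.26-fold. Adam10, a protease that sheds GPNMB, rose 1.61-fold (188 ± 5.65 to 304 ± 12.5 CPM, edgeR adjusted p = 2.03e-10). Bace2, which cleaves PMEL for fibril formation, was not called (100.4 ± 3.48 and 105 ± 3.73 CPM, adjusted p = 0.276), except with scaling by library size alone (adjusted p = 0.00497).

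Other ion and solute transporters of melanosomes and lysosomes were mostly lower. Of 15 tested, 13 fell, 1 rose and 1 was not called, with a median log2 difference of -0.46. Library size alone gave 1 higher and 11 lower, with a median of -0.35. The chloride-proton exchanger Clcn7 fell 3.84-fold (399 ± 11.8 to 104 ± 3.76 CPM, edgeR adjusted p = 1.29e-16) and the proton pump subunit Atp6v0a1 2.56-fold (adjusted p = 1.17e-14). The cysteine importer Mfsd12 fell by 0.44 on the log2 scale (103 ± 7.83 to 75.8 ± 7.96 CPM, adjusted p = 3.02e-05). The gene that rose was the endosomal channel Tpcn1, 1.59-fold.

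Genes for moving melanosomes along the cytoskeleton and for building them were counted separately. Of 17 tested movement genes 12 rose, 2 fell and 3 were not called, with a median log2 difference of 0.20. Rab38, a GTPase that delivers melanin enzymes, rose 5.70-fold (36.1 ± 2.69 to 205 ± 3.68 CPM, edgeR adjusted p = 9.2e-17), while its relative Rab32 fell 2.08-fold (17.3 ± 0.649 to 8.27 ± 1.29 CPM, adjusted p = 1.12e-06). Mlph, the linker between the melanosome and its myosin, rose 2.06-fold (adjusted p = 1.85e-11). Its GTPase partner Rab27a was not called (31.3 ± 1.24 and 28.1 ± 1.47 CPM, adjusted p = 0.0995). Of 20 genes of the biogenesis complexes 12 fell, 5 rose and 3 were not called, with a median of -0.27. Library size alone gave 5 higher and 10 lower in this list. Bloc1s2 fell 3.06-fold (adjusted p = 1.46e-11) and Dtnbp1 rose 2.19-fold (edgeR adjusted p = 8.72e-10).

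Lysosomal genes driven by TFEB and TFE3, a program that also holds Gpnmb, were mostly lower. Of 20 tested, 14 fell, 4 rose and 2 were not called, with a median log2 difference of -0.48. Library size alone gave 6 higher and 13 lower. The list shares Mcoln1 with the transporters above. The autophagy receptor Sqstm1 fell 4.12-fold (6515 ± 185 to 1581 ± 45.1 CPM, edgeR adjusted p = 1.95e-18) and the galactosidase Gla 6.62-fold (adjusted p = 2.14e-17). Ctsb, a lysosomal protease, rose 1.148-fold (adjusted p = 1.49e-05).

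**Figure D4:**
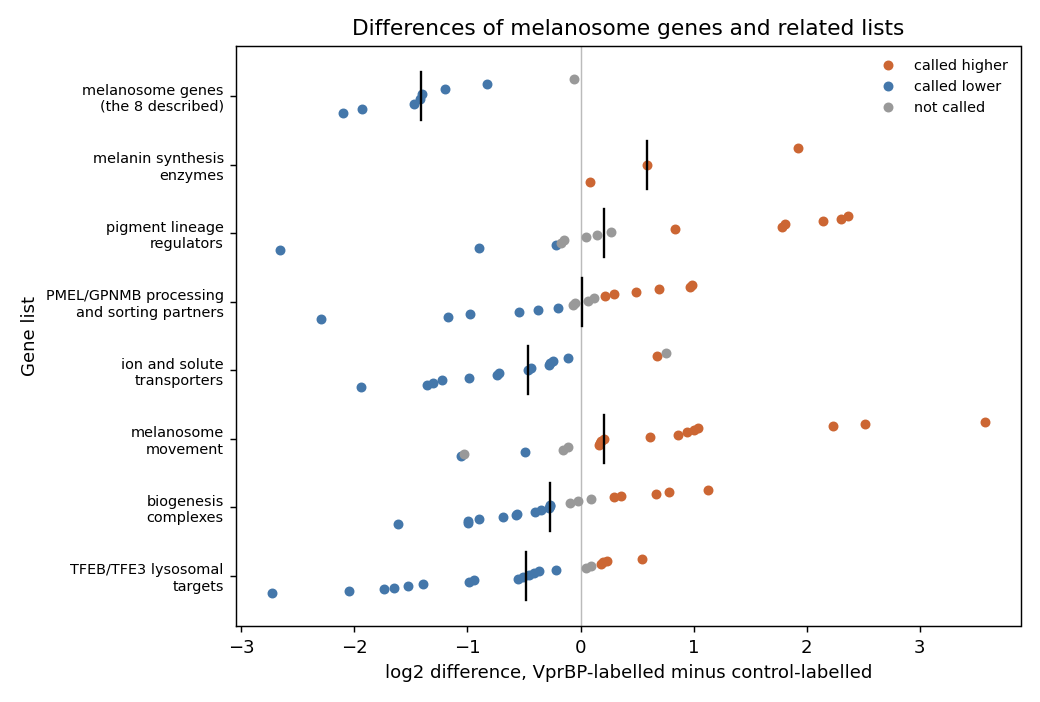
Log2 difference, VprBP-labelled minus control-labelled (x axis), of each tested gene in 8 lists (y axis), coloured by call, with a bar at each list's median. The melanosome genes have a median of -1.41, the melanin synthesis enzymes of 0.59 and the pigment lineage regulators of 0.21.

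Among 9 tested paralogs of the transporters and of Trpm1, of 15 listed, 3 rose, 4 fell and 2 were not called, near the shares over all tested genes (37.9% higher and 37.0% lower). Slc45a4 rose 1.36-fold (64.3 ± 1.92 to 87.3 ± 4.38 CPM, edgeR adjusted p = 2.39e-06), whereas Slc45a3 stood at 30.5 ± 0.847 and 29.3 ± 4.35 CPM (adjusted p = 0.603). Trpm7, a widely expressed channel kinase, fell 1.56-fold (176 ± 5.19 to 113 ± 5.38 CPM, adjusted p = 2.29e-09).

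Markers of other cell types moved with the labels too. Of 12 Schwann cell markers, all with a row, 11 were higher and 1 lower, beside 37.9% and 37.0% over all tested genes. Their sum was 395 to 432 CPM in the control group and 2218 to 2347 CPM in the VprBP group. The lower marker was Egr2, scarce at 1.29 ± 0.252 and 0.588 ± 0.303 CPM (edgeR adjusted p = 0.045). With library size alone, DESeq2 or the replicate block, 0 were lower and 1 not called. One of these markers, Sox10, is shared with pigment cells. Of 10 fibroblast markers 6 have a row, and their sum was 27.8 to 29.4 CPM and 328 to 378 CPM. Col1a1 (14.9 ± 1.07 and 302 ± 28.1 CPM) and Pdgfra (10.2 ± 0.917 and 44.9 ± 2.98 CPM) carried nearly all of the sum in the VprBP group. Dcn was called lower (2.70 ± 0.297 and 1.26 ± 0.365 CPM, edgeR adjusted p = 0.00568), and Fap, too scarce to be tested, stood at 0.790 ± 0.463 and 0.0180 ± 0.0311 CPM. Of 10 markers of the retinal pigment epithelium, another cell with melanosomes, 4 have no row, Rpe65 among them, and the other 6 summed to 19.0 to 21.0 CPM and 16.3 to 18.0 CPM. Of 10 markers of retinal bipolar cells, where Trpm1 also acts, 6 have no row, Grm6 among them, and the other 4 summed to 12.2 to 15.7 CPM and 70.3 to 82.0 CPM, most of it the kinase Prkca. Their part in the lower levels of the melanosome genes was not tested.

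Of 16 genes that flank or overlap a melanosome gene, 3 had too few counts to be tested. Of those tested, 11 were higher, 1 lower and 1 not called, beside 37.9% higher over all tested genes. The lower gene, Herc2, and 1 of the higher genes, the pseudogene Gm5596, flank Oca2, which itself was not called. The flanking genes are those next in the table, and lie between 701 and, for Gm5596, 1342288 bases away. Where the next gene overlaps, as for Pmel, Slc24a5 and Trpm1, none farther on that side was taken. Ermp1, the neighbour before Mlana, rose 3.44-fold (75.8 ± 3.27 to 261 ± 8.93 CPM, edgeR adjusted p = 1.26e-15). Tmem176a, before Gpnmb, rose 3.16-fold (136 ± 3.88 to 428 ± 13.5 CPM, adjusted p = 6.4e-16), and Klf13, before Trpm1, rose 3.67-fold (adjusted p = 4.51e-12).

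The genes whose profile over the 6 libraries was nearest to each melanosome gene were sought by the distance between log2 levels centred on each gene's mean, among 9284 protein-coding genes averaging 10 CPM or more, predicted genes left out. Nearest to Pmel were Eif1a (distance 0.0570), Derl1 (0.0589) and Fam83h (0.0700). Nearest to Gpnmb were Sar1b (0.0505), Srsf2 (0.0545) and Tspan31 (0.0561), and nearest to Mlana were Leprotl1, Gmppa and Dcaf10, at 0.0739 to 0.0926. Cmas, Pdia6 and Nop14 were nearest to Slc45a2, Dcaf10, BC031181 and Slc35f6 to Slc24a5, Sqle, Urb1 and Fam50a to Gpr143, and Fam126b, Gorab and Maskbp3 to Trpm1. Among the 8 themselves, Pmel and Mlana were nearest (0.146), followed by Mlana with Slc24a5 (0.149) and Slc45a2 with Gpr143 (0.221). All 6 libraries enter each distance, so for the 7 called genes the difference between the labels is part of what is matched. For Oca2 the nearest gene was Nudt16, at 0.369, farther than the nearest gene of any other member. Oca2 had only 19 to 48 counts a library, below the 10 CPM asked of the candidates. The part of counting spread in this distance was not tested.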

How the data were processed

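Messenger RNA libraries, 3 per label, were made with a SMARTER kit from RNeasy-purified total RNA, per the labels' protocols. The authors deposited expected counts per gene, not scaled between libraries, made with Partek on the build mm10, per the submitters' processing notes. No source used here names the aligner, counting tool, strand setting or annotation release. Between 62.1% and 64.5% of values in a library were whole within 0.001. The values of Pmel, Mlana and Slc24a5 were whole in 3, 1 and 0 of the 6 libraries, so they are uncertain to the extent that reads were divided between features, and those of the other 5 genes were whole in all 6. The lowest row total was 10 counts.

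Counts were rounded and tested in edgeR 4.0.16 (R 4.3.3) by quasi-likelihood F tests with TMM scaling and filterByExpr. The label was the only term and Benjamini-Hochberg adjustment ran over all 14641 tested genes. The test was also run on simulated counts, with outcomes not given here. A count of 0 would allow up to 0.137 to 0.178 CPM, taken as 3 counts, covering counting error only. Of the gene IDs 18501 (97.8%) matched GENCODE M21, with equal spans, and gave exon lengths. Members and lists were chosen with earlier results of these data known. All members and Dcaf1 are named. Other named genes were drawn from up to 3 called genes in each direction by smallest p per pathway list and markers above 5 CPM. They were also drawn from flanking and overlapping genes and the 3 nearest profiles per member. Not every gene that met this rule is named. The keratinocyte markers and the T, B and neutrophil markers are not described. Bace2, Mfsd12, Mcoln1, Rab27a, Slc45a3, Tfeb, Egr2, Ctsk, Dcn and Fap fall outside this rule and were named after their values were seen. DESeq2 1.42.0, other scalings and filters, a replicate block and leaving out each library were alternatives.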

Additional observations from a re-analysis of the deposited data

How the results depend on the processing

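With 14 alternatives, 7 of the 8 genes stayed lower and called in each, with none called higher. Of all tested genes, 37.0% were called lower in the main analysis. The set was chosen with this contrast known, so nothing is read from the count. Leaving out each library in turn gave log2 differences of -1.50 to -1.45 for Pmel, -0.84 to -0.80 for Gpnmb, -2.12 to -2.07 for Gpr143 and -1.29 to -1.06 for Trpm1. Scaling by library size alone moved the median of all genes to 0.10, and gave -1.36 for Pmel and -0.71 for Gpnmb. The sign of Oca2 was not settled: 0.058 with library size alone, and -0.30 to 0.13 when a library was left out, and the stricter filter of 5 CPM in 3 libraries removed it. Dcaf1 was -0.12 and not called with library size alone (edgeR adjusted p = 0.137). The ratio (VprBP over control group) of the summed level, 0.470, became 0.510 with library size alone, 0.352 without Gpnmb and 0.530 without Pmel. The ratio of Gpnmb to Pmel rose 1.57 times between labels, and 1.55 to 1.59 times with a library left out. Over all genes, 5552 were called higher and 5422 lower; alternatives gave 4588 to 6160 and 4690 to 5696. Same-numbered libraries did not deviate together (r = -0.032, 0.007 and -0.042), so no pairing by number was seen. These values cannot tell whether same-numbered libraries share an animal or culture. A replicate block gave 5395 higher and 5254 lower, and -1.48 for Pmel. Oca2 had 19 to 48 counts a library and a CV of 32.1% within the control group.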
